A study of Mus musculus with 4 samples.

Results

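The nuclear genes for proteins of the mitochondrial ribosome were followed in mouse blastocyst outgrowths, wild-type or Tip110-/-. Members were the rows of the deposited table with exactly 1 gene symbol that began with Mrpl or Mrps and a number, with 1 row per symbol. This gave 74 of 30145 genes, 46 of the large subunit (Mrpl) and 28 of the small subunit (Mrps). Each had a single row, so no choice between rows was needed. Mrpl30, Mrpl53 and Mrps6 occurred only on rows shared with another symbol and were not members. Mrpl58 carried its older symbol Ict1 in the platform annotation and was not a member either.

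Blastocysts came from intercrosses of Tip110+/- mice, mated naturally or after superovulation, were flushed at 3.5 days post coitum and were grown one per well for 4 to 6 days, without treatment. An outgrowth holds trophoblast cells that spread on the dish around the progeny of the inner cell mass. RNA was amplified from picogram amounts and measured on 4 Affymetrix whole-transcript arrays. Each genotype had 2 arrays: replicate 1 held RNA of 3 outgrowths pooled together, and replicate 2 that of 1 outgrowth. The labels name neither the mutant allele nor the strain. The replicates are labelled biological, and p-values measure the spread between these arrays. Tip110 is the protein of Sart3, a factor that helps U4 and U6 small nuclear RNAs to rejoin during splicing.

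Mitochondrial ribosomes translate the few messenger RNAs encoded by mitochondrial DNA, which specify membrane-embedded core subunits of the respiratory chain. Their ribosomal RNA is transcribed from mitochondrial DNA, whereas every protein of the particle is encoded in the nucleus, made in the cytosol and imported. Some of these proteins descend from bacterial ribosomal proteins and others are found only in mitochondria. The large subunit joins amino acids into the peptide chain and the small subunit decodes the messenger RNA.

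Signal is the deposited log2 value, and a difference of 1 is a 2-fold change. The median over all genes was 4.21 and 4.22 in the wild-type arrays against 4.45 and 4.32 in the Tip110-/- arrays, in replicate order, and the antigenomic background rows had medians of 2.82 to 3.05. Positive control rows had medians of 9.80 and 9.66 for wild-type, against 8.69 and 9.51 for Tip110-/-. RNA collected per outgrowth was 248.7 and 178 pg in wild-type against 55 and 144 pg in Tip110-/-. Sart3 was at 4.94 and 5.98 in wild-type against 4.28 and 4.54 in Tip110-/-, a difference of -1.05 ± 0.39 (SE; limma adjusted p = 0.387), and whether its probes lie in the deleted part is not given in the labels.

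Promoters of the members carried motifs that are known from genes of mitochondrial function, and 5 of these sequences are shown for the genes described most closely below. RefSeq sequences of assembly GRCm38.p6, from 250 bases before to 50 bases after the transcription start, matched 65 of the 74 members in 71 entries. Motifs were searched on both strands, with no mismatch allowed. Entries with CCGGAAG, the core bound by ETS factors such as GABP, were found for 24 of the 65 members, or 36.9%, against 12.9% of all protein-coding genes in that table and 8.86% of all its promoters. The palindromic NRF1-type motif was found for 12 members (18.5%, against 7.17% of protein-coding genes and 4.60% of all promoters). AAGATGGCG, a YY1-type site, was found for 8 members (12.3%, against 2.14% and 1.40%). At least 1 of these 3 motifs was present for 38 members, and 6 members had more than 1 of them. The shares of all genes with such combinations were not computed. The CCAAT box was found for 26 members (40.0%, against 42.3% and 37.4%), the Sp1-type GGGCGG for 33 (50.8%, against 49.2% and 35.7%) and TATAAA for 5 (7.69%, against 14.8% and 13.6%). A match is a run of letters and not a measured binding site.

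The sequences run 5′ to 3′ toward the start of the first-named gene and end at the base before it, with matches to the 6 motifs in capitals. Mrpl36 and Mrpl17 are shown because their genotype differences were those with an unadjusted p under 0.05, Mrpl50 because it had the largest difference toward higher signal, and Mrps12 and Mrpl46 because their starts lie back to back with those of another gene of mitochondrial translation. The last 3 sequences stop short of the partner's start.
Mrpl36 (chr13:73330759-73331008, plus strand): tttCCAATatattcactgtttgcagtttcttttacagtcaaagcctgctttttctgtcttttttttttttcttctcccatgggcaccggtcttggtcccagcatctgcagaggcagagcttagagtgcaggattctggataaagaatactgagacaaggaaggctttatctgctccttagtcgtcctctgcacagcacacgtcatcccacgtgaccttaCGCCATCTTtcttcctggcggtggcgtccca
Mrpl17 (chr7:105811088-105811337, minus strand): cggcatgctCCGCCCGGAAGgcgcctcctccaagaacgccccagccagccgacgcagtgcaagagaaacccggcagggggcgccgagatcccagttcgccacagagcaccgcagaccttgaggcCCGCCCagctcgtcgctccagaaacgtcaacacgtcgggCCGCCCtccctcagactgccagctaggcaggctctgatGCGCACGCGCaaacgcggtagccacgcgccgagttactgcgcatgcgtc
Mrpl50, toward Zfp189 (chr4:49521084-49521175, minus strand): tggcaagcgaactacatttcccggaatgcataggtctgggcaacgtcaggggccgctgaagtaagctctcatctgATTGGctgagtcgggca
Mrps12, toward Sars2 (chr7:28741822-28741967, minus strand): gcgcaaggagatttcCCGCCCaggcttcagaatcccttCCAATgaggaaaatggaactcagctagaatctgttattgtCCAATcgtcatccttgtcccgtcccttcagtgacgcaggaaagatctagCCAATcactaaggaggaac
Mrpl46, toward Mrps11 (chr7:78783090-78783130, minus strand): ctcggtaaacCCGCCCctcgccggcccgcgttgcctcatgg
The Mrpl36 sequence has a YY1-type match that begins 31 bases before the start and a CCAAT box at 247 bases. The Mrpl17 sequence has an NRF1-type match at 49 bases, Sp1-type matches at 87, 126 and 241 bases, and an ETS-type match at 237 bases that overlaps the last of these. Mrpl50 has a CCAAT box at 17 bases. Mrps12 has CCAAT boxes at 19, 68 and 108 bases and an Sp1-type match at 131 bases, and Mrpl46 has an Sp1-type match at 31 bases. The YY1-type, NRF1-type and Sp1-type matches and the CCAAT box of Mrpl50 lie on the other strand. The ETS-type motif counted for Mrps12 and the TATAAA counted for Mrpl46 lie outside the stretches shown.

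The comparison of wild-type with Tip110-/- arrays asked which of these genes differ when Tip110 is missing. Most mitochondrial ribosomal protein genes differed by less than 2-fold between genotypes, and those with a larger difference were mostly lower in Tip110-/-. None of the 74 passed the adjusted threshold of 0.05 (smallest limma adjusted p = 0.334, for Mrpl36), and neither did any of the 30145 genes (0%). At an unadjusted p under 0.05, 2 large subunit genes were lower in Tip110-/-, against 3.67% of all genes and 5.93% of the 17494 genes whose mean signal lay above the median row of the table, fitted alone. Toward higher signal 0 members had such a p, against 8.99% of all genes and 5.47% of those above the median row. All 74 members lay above it. No small subunit gene reached that mark in either direction. In bulk RNA, fewer cells of a type and less RNA per cell cannot be told apart.

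The median difference was -0.20 over the large subunit genes and -0.09 over the small subunit genes, against 0.15 over all genes and 0.07 over those above the median row. After quantile normalization these were -0.087 and -0.018 against 0.011 over all genes, and after cyclic loess -0.14 and -0.029 against 0.0046. The interquartile range of the differences ran from -0.69 to 0.24 in the large subunit and from -0.77 to 0.19 in the small subunit. Differences below 0 were found in 27 of 46 large subunit genes and 16 of 28 small subunit genes, in 30.4% of all genes and in 44.0% of those above the median row. With the wild-type pool left out, both medians changed sign, to 0.046 for the large and 0.057 for the small subunit. At least 2-fold lower signal was found in 9 members (Mrpl17, Mrpl21, Mrpl24, Mrpl36, Mrpl39, Mrpl49, Mrpl55, Mrps12 and Mrps27), against 5.56% of all genes and 9.55% of those above the median row. At least 2-fold higher signal was found in 1 member, Mrpl50, against 4.53% and 7.71%.

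In 27 of the 74 members both Tip110-/- arrays lay below both wild-type arrays, 19 in the large and 8 in the small subunit. The share among all genes was 12.9%. In 8 members both Tip110-/- arrays lay above, 5 and 3 by subunit, against 39.9% of all genes, and in the other 39 the genotypes overlapped. Among the genes above the median row the shares were 20.6% lower and 26.6% higher. The split depended on scaling: after centring each array on its median, 34 members lay below and 1 above, against 23.9% and 17.6% of all genes. After quantile normalization there were 22 and 11, against 21.2% and 21.1% of all genes, and in the small subunit alone 6 lay below and 7 above. Without the wild-type pool, 30 members lay below and 32 above, against 21.0% and 55.1% of all genes, and without the single wild-type outgrowth 41 lay below and 9 above, against 23.3% and 52.7%. With either Tip110-/- array left out 19 lay above, and 35 lay below without the pool and 33 without the single outgrowth, where 52.5% and 56.0% of all genes lay above and 22.5% and 22.6% below.

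**Figure D1:**
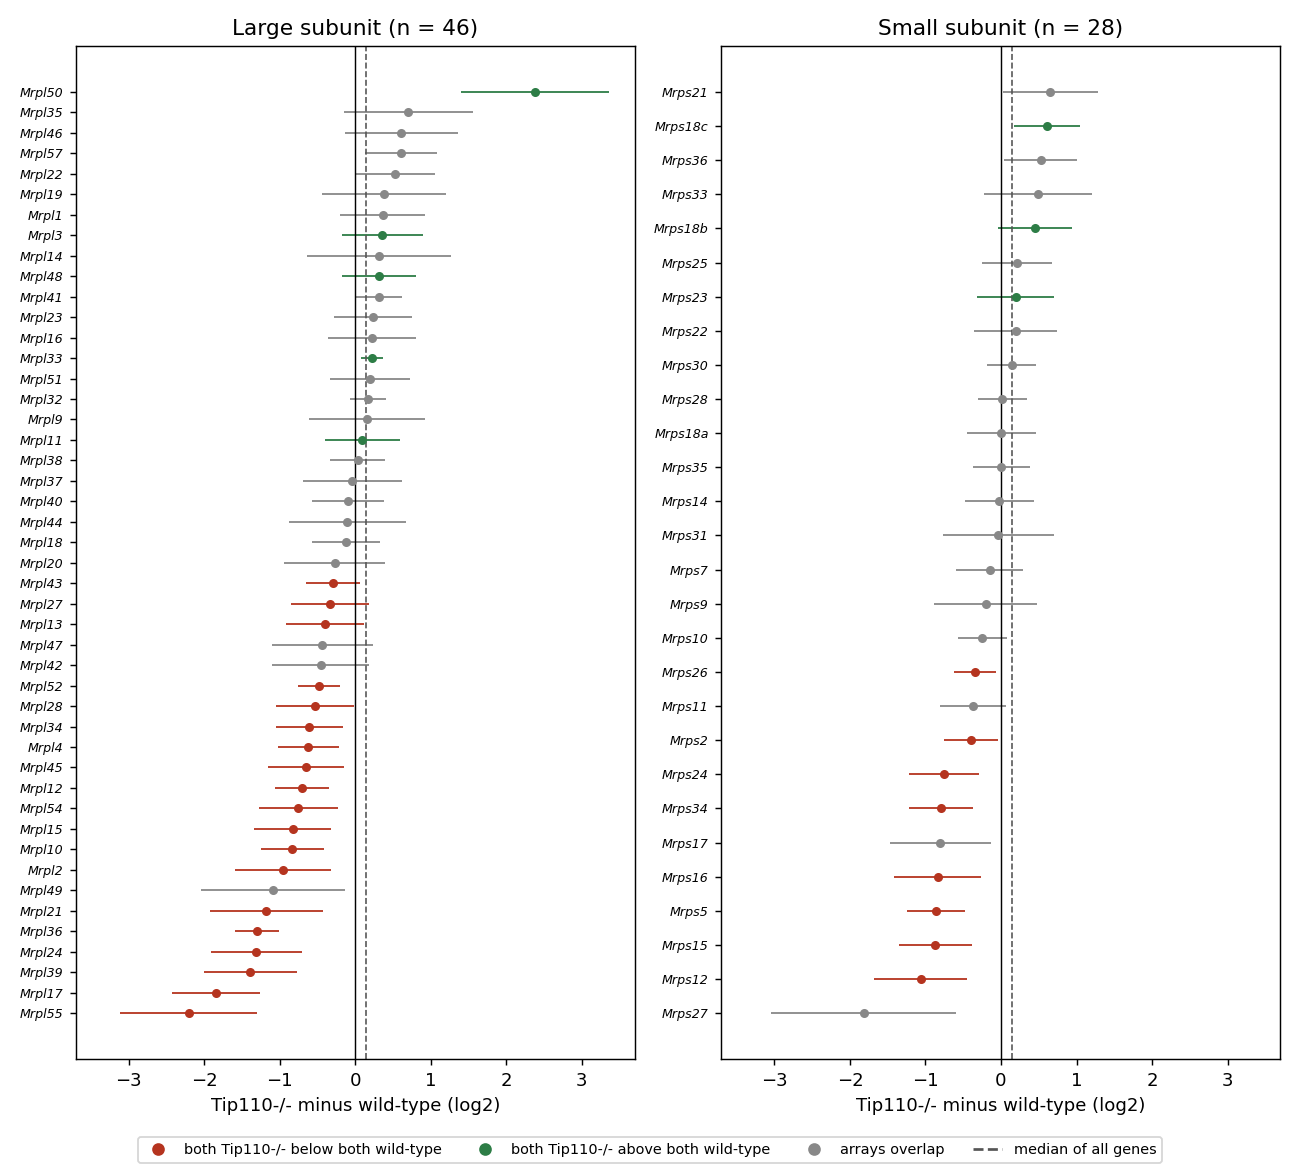
Difference between Tip110-/- and wild-type means (log2, x axis) with its standard error from limma for each of the 46 large and 28 small subunit genes; colours give whether both Tip110-/- arrays lay below both wild-type arrays (red, 27 genes), above them (green, 8) or overlapped with them (grey, 39). Most points lie within 1 of 0, and Mrpl50 is the only gene more than 1 above it.

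Mrpl36 and Mrpl17 had the lowest p-values. Mrpl36, the counterpart of bacterial ribosomal protein L36 and a small protein of the large subunit, measured 6.61 and 6.62 in the wild-type arrays against 5.36 and 5.27 in the Tip110-/- arrays. Both Tip110-/- arrays were clearly below both wild-type arrays and the replicates lay close together. The difference was -1.30 ± 0.29 (SE; unadjusted p = 0.00622, limma adjusted p = 0.334), and the unadjusted p ran from 0.000924 to 0.0316 over the alternatives, each array left out included. Mrpl17, the counterpart of bacterial L17, was at 7.67 and 6.84 in wild-type against 6.06 and 4.75 in Tip110-/-. The genotypes did not overlap, but the spread within each was wider. Its difference was -1.85 ± 0.58 (SE; unadjusted p = 0.0249, limma adjusted p = 0.358), and the unadjusted p was 0.101 without the wild-type pool and 0.116 without the single Tip110-/- outgrowth.

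Further large subunit genes with big differences were more variable. Mrpl55 had the lowest difference of all members, at 12.05 and 10.44 in wild-type against 9.93 and 8.16 in Tip110-/-, or -2.20 ± 0.91 (SE; limma adjusted p = 0.396). Its single outgrowth differed from its pool by -1.61 in wild-type and by -1.77 in Tip110-/-, and with an array left out the difference ran from -3.09 to -1.32. Mrpl39, which contains a domain related to threonyl-tRNA synthetase, was at 12.09 and 11.46 against 10.91 and 9.87, a difference of -1.39 ± 0.62 (SE). Mrpl24, a protein near the mouth of the peptide exit tunnel, was at 10.70 and 10.02 against 9.45 and 8.65, a difference of -1.31 ± 0.60 (SE). Mrpl55, Mrpl39 and Mrpl24 had no overlap between genotypes and limma adjusted p from 0.396 to 0.407.

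Mrpl50 stood alone in the other direction. This mitochondria-specific protein of the large subunit was at 11.26 and 8.66 in wild-type against 12.72 and 11.97 in Tip110-/-, a difference of 2.39 ± 0.98 (SE; limma adjusted p = 0.396). Both Tip110-/- arrays were above both wild-type arrays, and the wild-type arrays differed from each other by more than the genotypes did. Without the wild-type pool the difference was 3.69 (unadjusted p = 0.00598), and without the single wild-type outgrowth it was 1.08 (unadjusted p = 0.179). In the large subunit the next largest differences toward higher signal were in Mrpl35 at 0.70, Mrpl46 at 0.61, Mrpl57 at 0.61 and Mrpl22 at 0.53, and each of these overlapped between genotypes. Mrpl35 was at 6.64 and 5.67 in wild-type against 5.71 and 8.01 in Tip110-/-, so a single array was high.

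**Figure D2:**
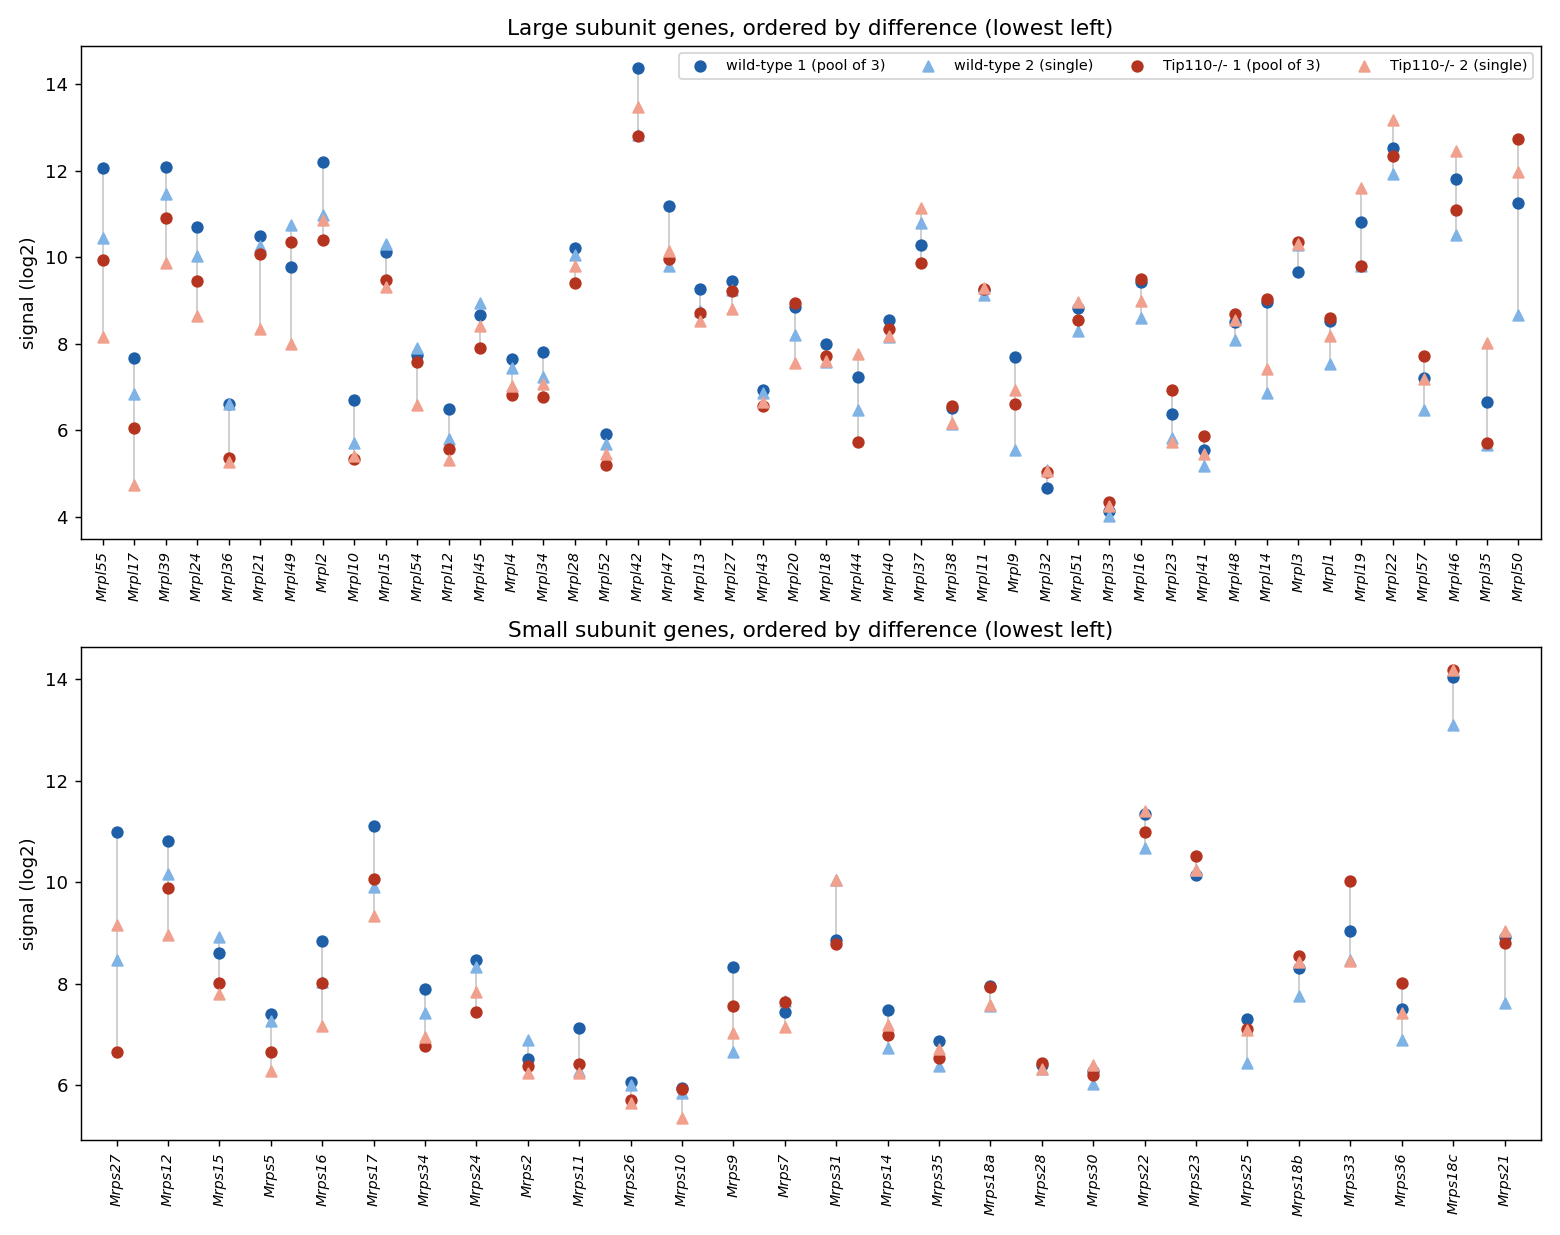
Signal (log2, y axis) of every member on the 4 arrays, with genes ordered from the lowest to the highest difference; circles are pools of 3 outgrowths, triangles single outgrowths, blue wild-type and red Tip110-/-. The grey line spans the 4 arrays, and the widest spans are in genes at the ends of the order, such as Mrps27, Mrpl50 and Mrpl55.

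In the small subunit the largest differences were toward lower signal. Mrps27, a pentatricopeptide repeat protein, was at 10.99 and 8.47 in wild-type against 6.66 and 9.16 in Tip110-/-, a difference of -1.82 ± 1.22 (SE; limma adjusted p = 0.483). The pools differed by -4.34 and the single outgrowths by 0.70, so the genotypes overlapped and the mean difference came from the pools. Mrps12, the counterpart of bacterial S12 at the decoding site, was at 10.82 and 10.16 against 9.89 and 8.96, a difference of -1.06 ± 0.62 (SE; limma adjusted p = 0.450) with no overlap. Mrps15 at -0.87, Mrps5 at -0.86 and Mrps16 at -0.84 likewise had no overlap (limma adjusted p from 0.405 to 0.492). In Mrps16 the single wild-type outgrowth and the Tip110-/- pool were nearly equal, at 8.02 each. The spread within genotypes of Mrps5 was small, at 7.39 and 7.26 in wild-type against 6.65 and 6.28 in Tip110-/-.

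Toward higher signal the small subunit reached no more than 0.65, in Mrps21, which was at 8.92 and 7.62 in wild-type against 8.80 and 9.04 in Tip110-/-. Mrps36 at 0.53 and Mrps33 at 0.49 overlapped as well. Mrps36 is also known as a part of the oxoglutarate dehydrogenase complex. The S18 paralogues, which share a bacterial ancestor, differed among themselves: Mrps18c was at 0.61 and Mrps18b at 0.45, both without overlap, while Mrps18a was at 0.01. Mrps18c was at 14.03 and 13.11 in wild-type against 14.18 and 14.18 in Tip110-/-. None of the 3 passed (limma adjusted p from 0.504 to 0.996).

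Members at the ends of the signal range were described next, as an order of rows and not of RNA amounts, since probes differ between genes. Mrpl33 had the lowest mean signal of all members. It measured 4.14 and 4.02 for wild-type against 4.34 and 4.26 for Tip110-/-, little above the median row at 4.05, with a difference of 0.22. The negative control rows had medians of 3.98 and 4.03 for wild-type against 4.28 and 4.18 for Tip110-/-. Mrpl33 was counted as not overlapping, but at this level its difference may not be measurable. Mrpl32, with a mean of 4.96, and Mrpl41, with a mean of 5.52, followed in the large subunit, and Mrps10, Mrps26 and Mrps30 were lowest in the small subunit, with means of 5.77 to 6.23. Their differences ran from -0.35 in Mrps26, without overlap, to 0.31 in Mrpl41. At the upper end Mrpl42 measured 14.36 and 12.83 for wild-type against 12.80 and 13.48 for Tip110-/-, with the wild-type pool alone high. Mrps22 and Mrps23, the next highest in the small subunit after Mrps18c, differed by 0.19 each. Mrps23, at 10.14 and 10.23 against 10.52 and 10.24, was counted as not overlapping although 2 of its arrays were nearly equal.

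Genes were next read by the place of their proteins in the particle. The stalk that recruits translation factors is built from Mrpl12 and its anchor Mrpl10. Mrpl10 was at 6.71 and 5.71 in wild-type against 5.34 and 5.41 in Tip110-/-, and Mrpl12 at 6.48 and 5.80 against 5.57 and 5.31. Both were lower without overlap, by differences of -0.83 ± 0.42 and -0.70 ± 0.36 (SE; limma adjusted p = 0.426 and 0.428), and the wild-type pool was the highest array for each. Without that pool the differences were -0.33 and -0.35. Mrpl11, at the base of this stalk, was at 9.25 and 9.13 against 9.28 and 9.29, a difference of 0.10. Mrpl1, of the flexible stalk on the opposite side, overlapped between genotypes, with a difference of 0.36.

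Around the exit of the peptide tunnel the genes did not share a direction. Mrpl45, related to a yeast protein that docks the ribosome at the inner membrane, was at 8.67 and 8.95 in wild-type against 7.90 and 8.41 in Tip110-/-, a difference of -0.65 without overlap. Mrpl24 was lower as given above, whereas Mrpl22 differed by 0.53, Mrpl23 by 0.24 and Mrpl44, a protein with a ribonuclease III fold, by -0.10, all with overlap. In the central protuberance, where both subunits meet the transfer RNAs, the 6 measured genes Mrpl18, Mrpl27, Mrpl38, Mrpl40, Mrpl46 and Mrpl48 had a median difference of -0.03, from -0.33 in Mrpl27 to 0.61 in Mrpl46.

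Proteins with a bacterial counterpart were next set beside those specific to mitochondria. Mrps30 was placed in the large subunit, where structures find it, and Mrps18a was kept in the small subunit. Mrpl55, Mrpl57 and Mrps36, with differences of -2.20, 0.61 and 0.53, were left unclassified, so the class medians and ranges do not cover them. In the large subunit the median difference was -0.30 over 28 genes with a counterpart, from -1.85 to 0.70. It was -0.09 over 17 classed as specific to mitochondria, from -1.39 to 2.39. In the small subunit it was -0.25 over 17 with a counterpart, from -1.06 to 0.65. Over 9 classed as specific to mitochondria it was 0.00, from -1.82 to 0.49. Both genes at an unadjusted p under 0.05 belonged to the large subunit genes with a counterpart. Whether the classes differ was not tested. Over all members, counting Mrps30 and Mrps18a with the large subunit and leaving out Mrps36 gave medians of -0.11 for the large and -0.20 for the small subunit.

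The array of the wild-type pool carried the highest signal more often than the other 3 arrays. It was the highest of the 4 for 35 of 74 members, or 47.3%, against 16.1% of all genes and 23.1% of genes above the median row. The pooled Tip110-/- array was the highest for 18 members (24.3%), the single Tip110-/- outgrowth for 12 (16.2%) and the single wild-type outgrowth for 9 (12.2%). Among all genes these shares were 41.6%, 26.9% and 15.3%, and among those above the median row 27.4%, 28.2% and 21.3%. The single wild-type outgrowth was the lowest array for 30 members (40.5%) and the wild-type pool for 3 (4.05%). Among all genes these shares were 33.4% and 34.5%, and among those above the median row 31.8% and 23.4%. The member median was 8.52 and 7.83 in the wild-type arrays against 8.0 and 7.81 in the Tip110-/- arrays, with the wild-type pool highest. For the large subunit these medians were 8.75 and 8.19 against 8.64 and 8.17, so both pools were high, and for the small subunit 8.13 and 7.59 against 7.60 and 7.30.

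**Figure D3:**
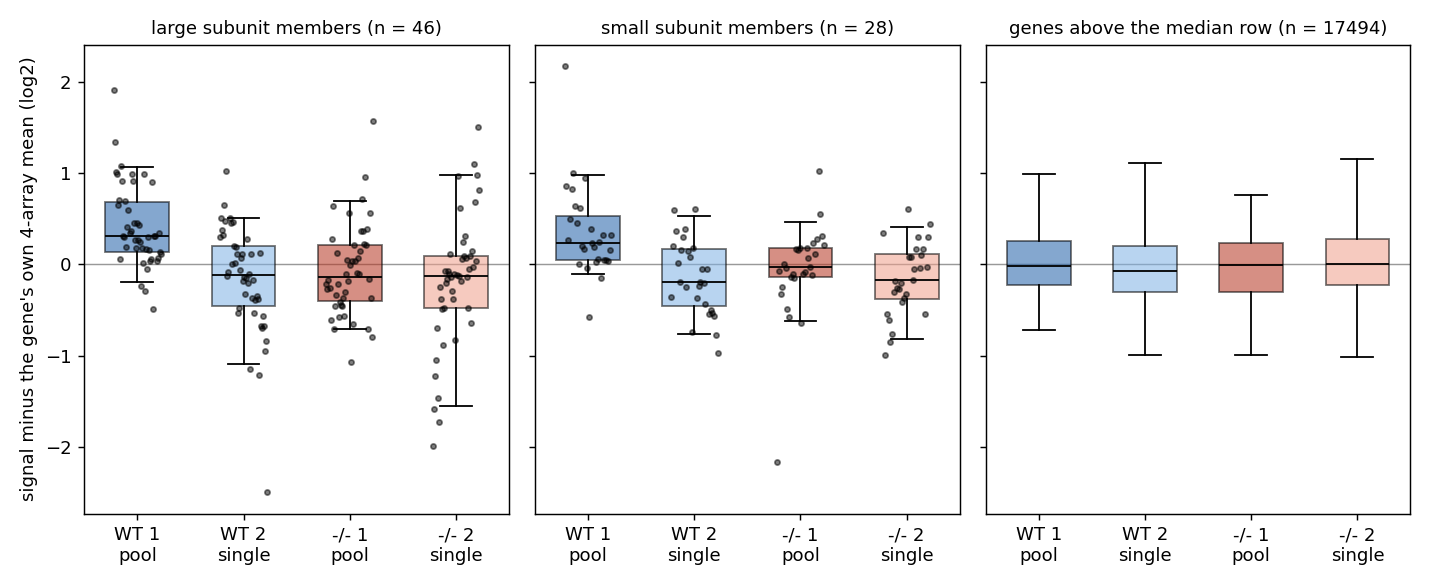
Signal on each array minus the gene's own mean over the 4 arrays (log2, y axis) for large subunit genes, small subunit genes and the 17494 genes above the median row; boxes span the interquartile range with the median, whiskers the 5th to 95th percentile, and dots are single members. The boxes of the wild-type pool lie above 0 in both subunits, with medians of 0.31 and 0.24, and near 0 (-0.01) in the genes above the median row.

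Pools and single outgrowths were compared within each genotype. The wild-type pool exceeded the single wild-type outgrowth in 61 of 74 members, by a median of 0.54. The shares were 48.8% of all genes and 53.4% of those above the median row. The Tip110-/- pool exceeded the single Tip110-/- outgrowth in 45 of 74, or 60.8%, by a median of 0.11. Here the shares were 58.5% of all genes and 50.6% of those above the median row. Fitted as pooled minus single arrays, the median was 0.33 for the large and 0.27 for the small subunit, against 0.03 for all genes. In that fit 1 member had an unadjusted p under 0.05 toward the pools (0.922% of all genes) and 0 toward the single outgrowths (0.604% of all genes). It was Mrpl14, at 8.97 and 6.85 in wild-type against 9.03 and 7.42 in Tip110-/-, with a difference of 1.86 ± 0.60 (SE; limma adjusted p = 1.0). Both pools of Mrpl14 were above both single outgrowths, and its genotype difference was 0.31.

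The genotype difference also depended on which arrays were paired by pooling. Between the pools the member median was -0.35, with 52 of 74 below 0, and between the single outgrowths it was 0.00, with 36 of 74 below 0. Over all genes these medians were 0.16 and 0.11, with 10542 and 10353 of 30145 below 0. Over the genes above the median row they were -0.004 and 0.09, with 8797 and 7371 of 17494 below 0. In 30 members both comparisons were below 0 and in 16 both were above, against 5173 and 14409 of the 30145 genes. The wild-type pool was also the array with the most RNA per outgrowth, and the part of RNA amount in these values was not tested. For 40 protein-coding genes of cytoplasmic ribosomal proteins the wild-type pool exceeded the single wild-type outgrowth in 35, and the Tip110-/- pool exceeded the single Tip110-/- outgrowth in 8. Whether the mitochondrial and cytoplasmic genes differ in this was not tested.

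Other genes of mitochondrial translation came from lists of known factors. Among 5 further proteins of the mitochondrial ribosome without an Mrp symbol, 0 reached an unadjusted p under 0.05. Of all genes 3.67% did so toward lower and 8.99% toward higher signal, and of those above the median row 5.93% and 5.47%. Ptcd3, a pentatricopeptide protein of the small subunit, was at 8.49 and 9.13 in wild-type against 6.33 and 8.29 in Tip110-/-, a difference of -1.50 (limma adjusted p = 0.43). Ict1, a release factor built into the large subunit, differed by -0.54 and Dap3, of the small subunit, by 0.15. Of 26 factors for assembly and ribosomal RNA modification, 0 had an unadjusted p under 0.05 toward lower signal, against 3.67% of all genes. Toward higher signal 1 had such a p, against 8.99% of all genes. This was the pseudouridine synthase Rpusd4, at 3.89 and 4.16 against 4.69 and 4.93, near the median of all genes. Tfb1m, which methylates the small ribosomal RNA, was at 6.75 and 9.73 against 6.16 and 5.27, a difference of -2.53, with the single wild-type outgrowth alone high.

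In the list of 15 translation factors, which also holds Lrpprc and Slirp, 1 gene had an unadjusted p under 0.05 toward lower signal. Toward higher signal 0 had such a p, and the shares of all genes were 3.67% lower and 8.99% higher. Those of genes above the median row were 5.93% and 5.47%. Lrpprc, which stabilises mitochondrial messenger RNAs, was at 6.34 and 7.40 in wild-type against 4.96 and 4.89 in Tip110-/-, a difference of -1.94 ± 0.44 (SE; limma adjusted p = 0.334). Slirp, its binding partner, differed by -0.20 with overlap. The elongation factor Tufm differed by -0.43, and the formyltransferase Mtfmt, at 7.91 and 6.55 against 8.37 and 9.42, by 1.66 without passing.

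Among these lists of mitochondrial translation, that of the mitochondrial aminoacyl-tRNA synthetases had the lowest median, -0.37 over 19 genes. It also holds Qrsl1, Pet112 and Gatc, which are subunits of an amidotransferase and not synthetases. In this list 3 reached an unadjusted p under 0.05 toward lower signal and 0 toward higher, against 3.67% and 8.99% of all genes. Among genes above the median row, where all 19 lay, the shares were 5.93% and 5.47%. Both Tip110-/- arrays lay below both wild-type arrays in 10 of the 19, against 12.9% of all genes and 20.6% of those above the median row. Iars2, which charges isoleucine, was at 5.91 and 6.72 in wild-type against 4.35 and 4.10 in Tip110-/-, a difference of -2.09 ± 0.35 (SE; limma adjusted p = 0.297). Rars2, for arginine, was at 9.20 and 8.52 against 7.61 and 5.79, a difference of -2.16 ± 0.75 (SE; limma adjusted p = 0.375). Hars2, for histidine, was at 6.88 and 7.65 against 5.77 and 5.98, a difference of -1.39 ± 0.42 (SE; limma adjusted p = 0.354). In all 3 the genotypes did not overlap.

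The list for transcription, replication and RNA processing of mitochondrial DNA held 13 genes and had a median of -0.29. Of these genes 2 reached an unadjusted p under 0.05 toward lower signal and 0 toward higher, against 3.67% and 8.99% of all genes. For genes above the median row the shares were 5.93% and 5.47%. Pnpt1, a polynucleotide phosphorylase of mitochondria, was at 10.24 and 10.01 in wild-type against 7.29 and 8.27 in Tip110-/-, a difference of -2.35 ± 0.58 (SE; limma adjusted p = 0.339). Hsd17b10, a subunit of mitochondrial ribonuclease P, was at 10.09 and 9.95 against 8.93 and 7.65, a difference of -1.73 ± 0.64 (SE; limma adjusted p = 0.387). The transcription factor Tfam differed by -0.04 and the RNA polymerase Polrmt by -0.29. Mitochondrial ribosomal RNA itself was represented by mt-Rnr1, of the small subunit, at 18.82 and 19.00 in wild-type against 18.83 and 19.00 in Tip110-/-. This row lay at or above the 99.95th percentile of each array, and saturation there was not tested, so a difference may not be measurable.

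**Figure D4:**
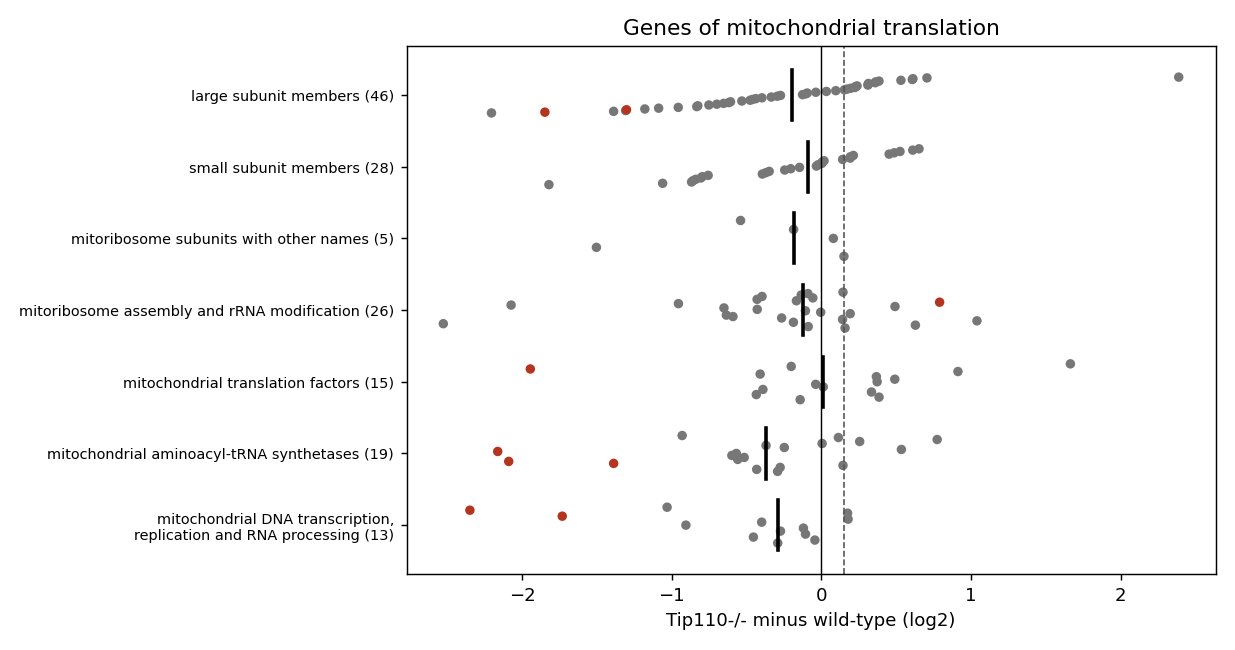
Difference between Tip110-/- and wild-type means (log2, x axis) of each gene, by list with its number of genes; black bars are list medians, red dots genes at an unadjusted p under 0.05, and the dashed line the median of all genes (0.15). The large and small subunit genes centre close to 0, at -0.20 and -0.09, and the synthetase list has 3 red dots toward lower signal.

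Regulators of nuclear genes for mitochondria were read as well, among them factors whose motifs were searched above. Nrf1 was at 7.23 and 7.78 in wild-type against 7.08 and 7.14 in Tip110-/-, a difference of -0.39. Gabpa, the DNA-binding subunit of GABP, differed by -0.08 and Yy1 by 0.39, both with overlap. Myc was at 11.15 and 10.95 against 12.52 and 13.82, a difference of 2.12 ± 0.60 (SE; limma adjusted p = 0.344). It was the only one of 8 regulators at an unadjusted p under 0.05, where 8.99% of all genes had one toward higher signal. The median difference of members with the ETS-type motif was 0.10, against -0.20 for members with a promoter entry and no such motif. It was -0.15 and -0.13 for the NRF1-type motif, and -0.42 and -0.10 for the YY1-type motif, which is in the Mrpl36 promoter and in 7 others.

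Starts of 22 members lay back to back with another gene's start within 500 bases, and for 21 of these the partner was measured. As Mrpl46 and Mrps11 face each other, this made 20 pairs. The genotype differences of member and partner had the same sign in 10 of the 20. Among the pairs of opposite sign were those with Zfp661, 4930473A02Rik and Cyb5rl, which differed by 0.16, 0.07 and 0.18. Signals of these partners, from 3.11 to 4.04, lay below the negative control medians on every array, so their signs may not be measurable. The starts of Mrpl46 and Mrps11 are 42 bases apart, and the genes differed by 0.61 and -0.37. Mrps11 was at 7.13 and 6.27 in wild-type against 6.41 and 6.25 in Tip110-/-, and Mrpl46 at 11.81 and 10.51 against 11.09 and 12.45, so the single Tip110-/- outgrowth was the highest array for one and the lowest for the other. Mrps12 and Sars2, the mitochondrial seryl-tRNA synthetase, start 147 bases apart and differed by -1.06 and 0.53. Mrpl50 at 2.39 starts 93 bases from Zfp189 at 0.11, and Mrpl55 at -2.20 starts 55 bases from the noncoding gene 2610507I01Rik at 0.53. Mrpl57 at 0.61 faces the kinetochore gene Ska3 at -1.69. No partner passed (limma adjusted p from 0.456 to 0.992).

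**Figure D5:**
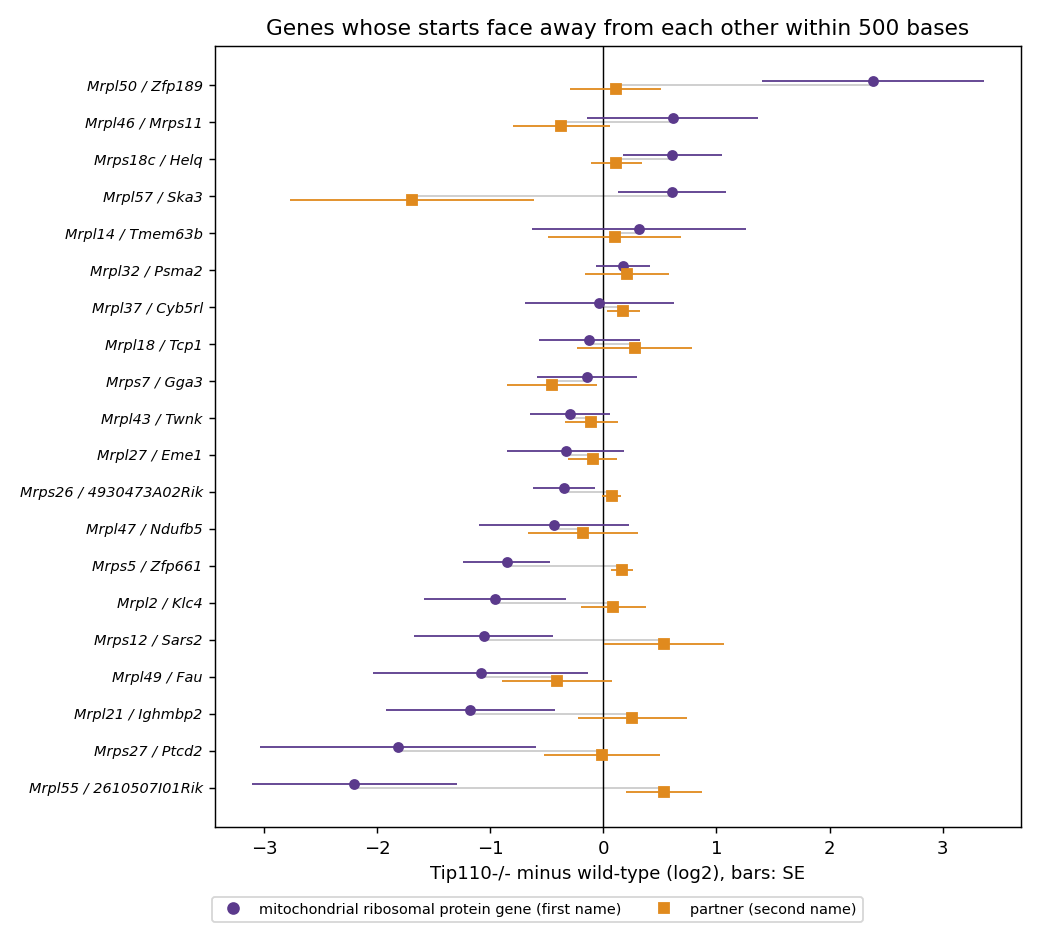
Genotype difference (log2, x axis) with its standard error for 20 pairs of genes whose starts lie back to back within 500 bases; circles are the mitochondrial ribosomal protein genes, squares their partners, and for Mrpl46 the partner Mrps11 is itself one. Mrpl50 and Mrpl55, at the ends of the order, lie farther from 0 than their partners, Ska3 lies farther from 0 than Mrpl57, and the signs match in 10 of 20 pairs.

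Markers of the cell types in an outgrowth were read beside the members, and none passed the adjusted threshold. Of 10 epiblast markers, 9 had an unadjusted p under 0.05 toward lower and 0 toward higher signal, with list medians of 10.67 and 10.50 in wild-type against 7.66 and 5.40 in Tip110-/-. Among all genes the shares with such a p were 3.67% toward lower and 8.99% toward higher signal. Among those above the median row they were 5.93% and 5.47%. Of 10 trophoblast markers, 2 (Gata2 and Prl5a1) had such a p toward higher signal and 0 toward lower, with medians of 10.34 and 10.15 against 10.87 and 12.03. Of 11 primitive endoderm markers, 1 (Ttr) had it toward higher signal and 0 toward lower, with medians of 4.79 and 3.91 against 4.82 and 4.77. These markers ranged from Sox17, at 3.45 to 3.64, to Sparc, at 11.37 to 12.90. Between genotypes 7 of the 11 overlapped, against 14208 of all 30145 genes. Fibroblast markers, for feeder cells, had list medians of 3.61 to 4.02, above the background rows and, on every array, below the negative control rows, whose medians were 3.98 to 4.28. The part of cell type composition in the values of Mrpl36, Mrpl17, Mrpl50 and the other members was not tested.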

How the data were processed

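Outgrowths were measured on 4 arrays, 2 per genotype. The authors deposited log2 signal values, with the log base inferred from their range. The submitters' processing notes name Affymetrix Expression Console and Transcriptome Analysis Console. How the arrays were normalized, and on which genome build, is not given in the sources used here. Detection calls were not used. The labels state 144 pg of RNA per array and the design text 100 pg.

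Of 72688 rows, 30604 had 1 gene symbol in the platform annotation. The row with the highest mean was kept for 352 genes with several rows, which left 30145. Rows with 2 or more symbols or none (2146 and 33206) and 6732 control rows were left out. R 4.3.3 and limma 3.58.1 (lmFit, eBayes with an intensity trend, genotype as the term) gave two-sided p-values, adjusted by Benjamini-Hochberg over the 30145 genes. The fit was tested on simulated data. At the adjusted threshold it called 3 of 50 genes given a log2 change of 1 and 23 of 50 given a log2 change of 2. It called 40 of 50 given a change of 4 and 49 of 50 given a change of 8. The simulated noise was independent for each array, with no difference between pools and single outgrowths. In the measured arrays no gene was called, Nr0b1 at -7.97 included, so the simulation may overstate what the fit can find. A gene that was not called may therefore still differ. With 2 arrays per genotype, an exact permutation test could reach no p below 0.333, and the number of arrays limits the precision. Tables were joined with pandas 2.3.3 and plots drawn with matplotlib 3.10.9.

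Members and lists were chosen with earlier results of these data known, so no list was tested. Named genes were those at an unadjusted p under 0.05, the 5 largest differences per direction and subunit, the highest and lowest levels, genes of named structural places and, from other lists, those with the smallest p. Others, such as Mrpl14 and the promoter partners, were chosen after their values were seen. Signals of different genes were set only in an order of rows, since their probes differ. Alternatives were other scalings, a filter, other variance models, array weights, the replicate number as a block, averaging the rows of a gene, updated symbols, another assignment to subunits, and each array left out. Deviations of same-numbered arrays from their group means correlated at -0.09 over genes.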

Additional observations from a re-analysis of the deposited data

Results flagged for a closer look

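In 3 large subunit genes the genotype difference of the pools and that of the single outgrowths were both at least 2-fold and of opposite sign. Each rests on 1 array per side, so the contrast between pools and single outgrowths was not tested. Mrpl44 differed by -1.49 between the pools and by 1.29 between the single outgrowths. Mrpl9, the counterpart of bacterial L9, differed by -1.08 and 1.39. Mrpl19, the counterpart of bacterial L19, differed by -1.02 and 1.79. In all 3 the pools were lower in Tip110-/- and the single outgrowths higher.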

How the results depend on the processing

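No gene passed the adjusted threshold in limma under any alternative, with a smallest adjusted p over all genes of 0.131 to 0.245. Without the wild-type pool both subunit medians changed sign. With each array left out in turn the large subunit median ran from -0.50 to 0.046 and the small subunit median from -0.33 to 0.057, and the cause was not tested. Less the median of all genes, the medians stayed below 0 under every alternative, from -0.65 to -0.10 in the large and -0.44 to -0.03 in the small subunit; quantile normalization gave the values nearest 0. Large subunit genes lower at an unadjusted p under 0.05 numbered 6 without the intensity trend and 1 to 5 with an array left out, and those higher 0 to 1. Small subunit genes lower numbered 4 without the trend and 1 after centring.

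With the replicate number as a block, 3 large subunit genes were lower and 1 was higher at an unadjusted p under 0.05, the latter being Mrpl50; the numbers share only a label. Counts of members without overlap, an alternative chosen after seeing the data, ran from 30 to 41 lower and from 9 to 32 higher with an array left out, and 1 was higher after centring. A replicate left out enlarges such counts by construction. The opposite sign was found in 25 of 602 alternative values of the 42 named genes and Sart3.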
